A study of Mus musculus with 4 samples.

Results

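Baseline gene expression of hair follicle stem cells (HFSCs) was described from the 2 control arrays among the 4 arrays of the study. The members were taken by their labels, as the sorted CD34+CD49f+ bulge cells of control mice in telogen. Control mice were littermates, matched by age and sex, that carried floxed *Hes1* (*Hes1* fx/fx or *Hes1* fx/wt) without K14-Cre. Which of these 2 genotypes went into each control pool is not stated. The other 2 arrays hold the same sorted cells from *Hes1*eKO mice, in which K14-Cre, driven by a keratin promoter of the basal epidermis and outer root sheath, removes *Hes1* from the skin epithelium. Back skin was taken at postnatal day 70 by the labels, in telogen, while the study's text gives a slightly later day, in the telogen that followed a depilation, and both genotypes mix ICR and C57bl/6 background. Each RNA sample was pooled from 2 mice, so that a pool and not a mouse is the unit of replication. The study counts the 4 arrays as 2 independent pairs, each of a control and a mutant. Whether the replicate number marks such a pair is not stated. Genotypes were not compared here, and the *Hes1*eKO arrays were read only where the control arrays differed from each other.

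The bulge is the lowest permanent portion of the hair follicle and holds slow-cycling stem cells that stay quiet during telogen. At the onset of anagen these cells and the hair germ beneath them answer Wnt and Shh signals, while BMP signals hold them at rest. The surface glycoprotein CD34 and the α6-integrin CD49f are the antigens by which they are sorted from mouse skin, and CD34 is also known on dermal fibroblasts, mast cells and endothelium.

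The arrays gave a value on the log2 scale, computed by the authors with robust multi-array average (RMA), for 41345 transcript clusters, the probe groups that stand for a gene or a part of it. Of these, 23521 carried exactly 1 gene symbol and stood for 22180 genes, each taken at its cluster with the highest control mean. The genes were ranked by the mean of the 2 control values. Clusters differ in how strongly their probes bind, so a rank is a rank of signal and not of RNA amount. As a background level, the 95th percentile of 1394 olfactory and vomeronasal receptor genes, chemosensory receptors of the nose, was taken on each array. It was 4.43 on control replicate 1 and 4.56 on control replicate 2. On both arrays, 11587 genes (52.2% of all genes) were above it, 57.4% of protein-coding genes, 17.0% of long noncoding RNA genes and 22.6% of microRNA genes. The receptor genes themselves had medians of 2.12 and 2.08. With 1 array against 1 array there is no test, and all values below are descriptions of these 2 pools.

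Listed transcripts of the bulge gave signal in the sorted cells. The marker list was chosen with earlier results of these data known, and it holds *Cd34* and *Itga6*, the genes of the sort antigens. A count over it describes these pools and is no independent test of what the cells are. *Krt19*, a bulge keratin that was not above background, is not in the list. All 25 of 25 listed bulge stem cell markers were above the background level on both arrays, beside 52.2% of all genes, and 16 of them were among the 1000 genes with the highest signal. Their median value was 8.97, at a median percentile of 97.1 among all genes, against a median of 4.82 over all genes. *Krt15*, the keratin by which bulge cells are most often traced, had values of 11.23 on control replicate 1 and 11.52 on replicate 2 and stood at rank 36, and pairs of values keep this order of the replicates from here on. *Cd34*, which encodes the sort antigen, had 10.70 and 11.24. *Itga6*, which encodes the other sort antigen CD49f, had 8.63 and 8.79. For these 3 genes replicate 2 was the higher array, as it was for 18 of the 25 markers. *Sox9*, a transcription factor needed to keep the bulge, had 9.90 and 10.30. *Lgr5*, a receptor for R-spondins found in the lower bulge and hair germ, had 8.96 and 8.97. The percentile of *Lgr5* was 97.1 by its brighter cluster and 76.6 by the mean of its clusters, so that its place depends on which probes are read. The label rests on the antigens of *Cd34* and *Itga6*, and *Krt15*, *Sox9* and *Lgr5*, which took no part in the sort, were above the background level beside them.

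**Figure D1:**
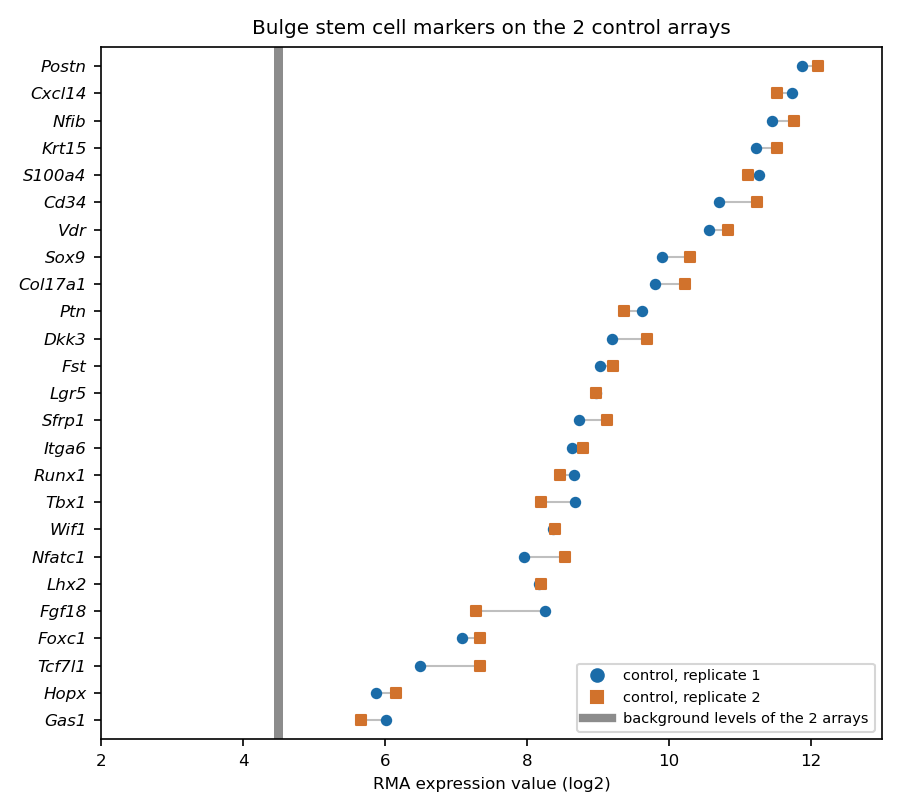
RMA values (log2, horizontal axis) of the 25 bulge stem cell markers on control replicate 1 (circles) and control replicate 2 (squares), ordered by their mean, with the background levels of 4.43 and 4.56 as a gray band. Every marker lies to the right of the band on both arrays, from *Gas1* (6.02 and 5.66) to *Postn* (11.88 and 12.10).

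Within the marker list, the highest signals came from a matrix protein, a chemokine and a nuclear factor. *Postn*, which encodes the matricellular protein periostin, had 11.88 and 12.10. *Cxcl14*, a chemokine of epithelia, had 11.74 and 11.51. *Nfib*, a transcription factor that keeps HFSCs from driving melanocyte stem cells into differentiation, had 11.44 and 11.76. These 3 genes and *Krt15* were the 4 markers among the 40 genes with the highest signal. Regulators of quiescence followed at lower signal. *Nfatc1*, which holds HFSCs at rest downstream of BMP, had 7.96 and 8.53, *Foxc1*, which restrains their activation, had 7.08 and 7.33, and *Lhx2*, a LIM homeobox factor of the bulge and germ, had 8.17 and 8.19. *Fgf18*, a ligand that prolongs telogen, had 8.25 and 7.28 and was the marker with the largest gap between the arrays in favor of replicate 1. *Tcf7l1*, the repressive Tcf factor of the bulge, had 6.48 and 7.33, the largest gap of the list in favor of replicate 2. *Hopx*, with 5.87 and 6.15, and *Gas1*, a hedgehog co-receptor first found in arrested cells, with 6.02 and 5.66, had the lowest signals of the list.

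The 40 genes with the highest signal were mostly housekeeping transcripts. Of the 40, 15 were cytosolic ribosomal protein genes or their pseudogenes, 5 were genes of the mitochondrial genome, 2 were structural RNAs and 2 were keratins. *Rn7sk*, a small nuclear RNA that restrains transcription elongation, led with 12.91 and 12.84. *Rplp1*, a ribosomal stalk protein gene, came next with 12.61 and 12.54. *Krt14*, the keratin of basal epidermis and outer root sheath, had 12.29 and 12.37 and was the epithelial gene with the highest signal. Among the remaining genes, *Perp*, a desmosome protein gene (11.64 and 11.74), *S100a6*, a calcium-binding protein gene (11.85 and 11.80), *B2m*, the light chain of MHC class I (11.41 and 11.84), *Txnip*, an inhibitor of thioredoxin and of glucose uptake (11.23 and 11.61), and *Sod1*, superoxide dismutase (11.54 and 11.28), are not housekeeping parts of the ribosome or mitochondrion. High signal did not always follow from a gene's known place of use. *Vmn1r233*, a vomeronasal receptor gene, ranked 12th with 11.91 and 11.94, while its other cluster had 2.23 and 2.43, and *Cnbd2* ranked 11th with 12.08 and 11.89, while its other clusters with that symbol alone had 3.53 and 3.65, and 3.85 and 3.69.

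Keratins separated into a small bright set and a long dim tail. Of 53 keratin genes, 27 were above the background level on both arrays, about the share of all genes, and 6 were among the first 1000. These 6 were *Krt14*, *Krt15*, *Krt17*, *Krt10*, *Krt6a* and *Krt24*. *Krt17*, a keratin of the outer root sheath, had 11.02 and 11.04. *Krt6a*, which marks the inner bulge and companion layer, had 10.17 and 10.72. *Krt24* had 9.78 and 10.98, the largest gap between the arrays among the keratins. Keratins of suprabasal epidermis stood beside those of bulge and outer root sheath on both arrays. *Krt10*, the suprabasal keratin of the interfollicular epidermis, had 10.44 and 10.49, and its partner *Krt1* had 8.08 and 8.47. *Krt5*, the partner of *Krt14*, has no cluster with that symbol alone in the annotation used, and the cluster shared by *Krt5* and *Krt6a* had 11.62 and 11.73. *Krt79*, a keratin of the upper follicle and its duct, had 6.68 and 5.93. Keratins of the hair shaft and inner root sheath ranged from above to under the background level. *Krt73* of the inner root sheath had 6.19 and 5.30. *Krt83* (5.63 and 5.82) and *Krt34* (5.69 and 5.74) of the hair shaft were above background on both arrays too. *Krt35* of the hair shaft had 4.80 and 4.71, and *Krt25* of the inner root sheath had 3.48 and 3.34. *Krt19*, a keratin known from the bulge, had 4.03 and 3.92 in its cluster and was not above background. Of 51 keratin-associated protein genes, which build the hair shaft, 8 were above it.

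**Figure D2:**
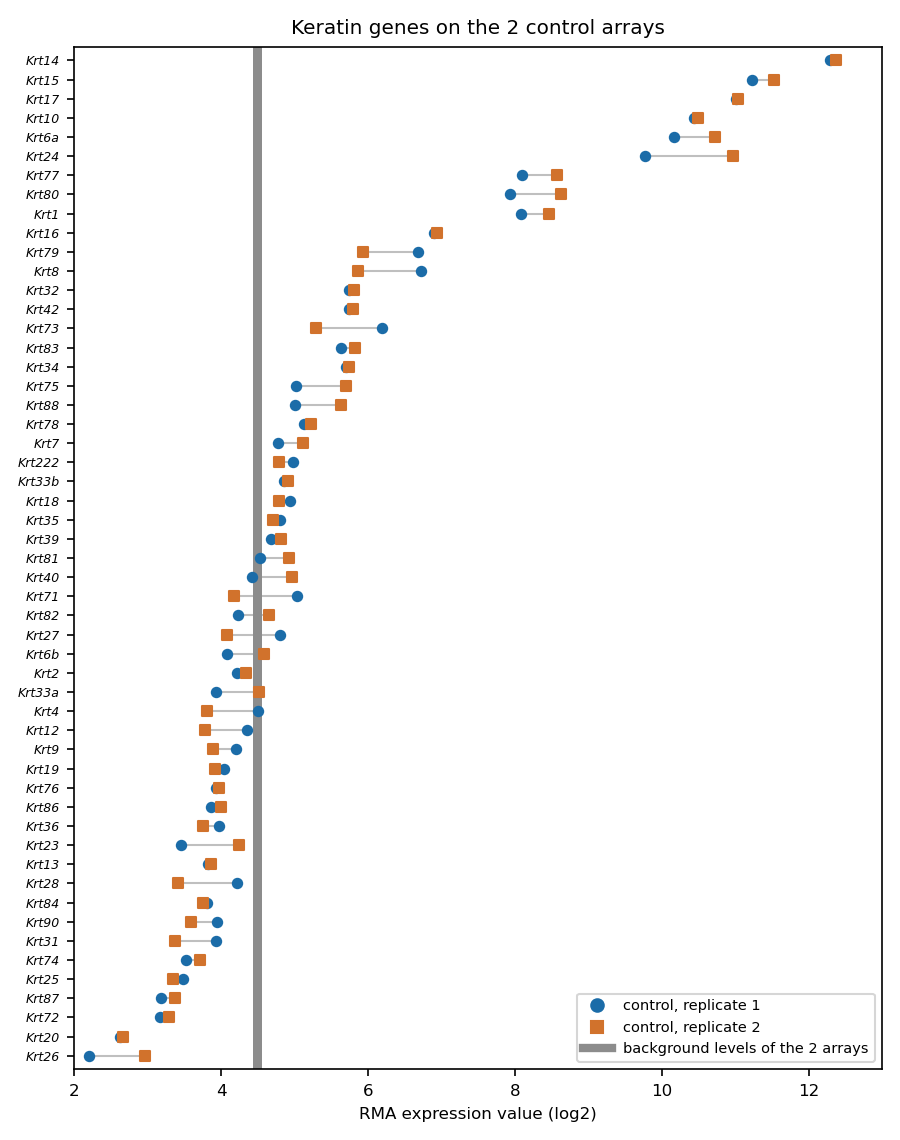
RMA values (log2, horizontal axis) of the 53 keratin genes on control replicate 1 (circles) and control replicate 2 (squares), ordered by their mean, with the background levels as a gray band. The 6 genes from *Krt14* (12.29 and 12.37) to *Krt24* (9.78 and 10.98) stand apart at the top, and 26 genes are not above the background level on both arrays.

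Some epithelial genes of high signal carry the TATA box letters TATAAA at the place where such boxes are known to act. Their promoters are shown for that reason beside others that lack these exact letters. The 60 bases before the transcription start were taken from RefSeq (GRCm38.p6, 5′ to 3′ on the strand of the gene), with the letters TATAAA in capitals where they begin within 40 to 11 bases before the start. For *Postn* only a promoter that holds these letters was taken.
Krt10: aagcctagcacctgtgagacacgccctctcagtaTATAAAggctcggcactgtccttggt
S100a4: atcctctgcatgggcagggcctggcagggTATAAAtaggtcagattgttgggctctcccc
Postn: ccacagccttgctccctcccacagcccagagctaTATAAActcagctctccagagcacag
Krt24: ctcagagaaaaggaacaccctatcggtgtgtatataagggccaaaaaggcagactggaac
Krt14: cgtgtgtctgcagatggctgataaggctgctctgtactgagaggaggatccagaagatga
The *Krt10*, *S100a4* and *Postn* promoters held TATAAA with its first base 26, 31 and 26 bases before the start. Those of *Krt24* and *Krt14* did not hold these exact letters in the window. That of *Krt24* has the near form tatataag there, which a search for the exact letters does not count. The sequences lie at chr11:99389365-99389424 on the minus strand for *Krt10*, chr3:90603710-90603769 on the plus strand for *S100a4*, chr3:54361047-54361106 on the plus strand for *Postn*, chr11:99285263-99285322 on the minus strand for *Krt24* and chr11:100206031-100206090 on the minus strand for *Krt14*.

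Across the 15359 of 18964 protein-coding genes with a RefSeq promoter, the letters TATAAA stood in the window in 8 of the 100 genes with the highest signal. These were *Postn*, *Sod1*, *Aqp3*, *S100a4*, *H4c12*, *Ecm1*, *Krt10* and *Zfp36l1*. The share was 1.56% among the next 900 genes by signal, 1.58% among the other genes above background and 5.01% among those not above it, against 3.07% of all of them and 2.08% of all 32851 promoters of the table. A gene counted if any of its promoters held the letters, whereas the share of the whole table counts single promoters. The letters were searched on the strand of the gene alone, no other motif was searched, and a match is not a shown site of binding. Median GC content of the 300-base promoters was 60.1% in the first 100, 62.3% in the next 900, 61.0% in the other genes above background and 50% in the genes not above it.

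Several genes that anchor epithelial cells to each other and to the basement membrane gave strong signal. Of 16 hemidesmosome and integrin genes, 14 were above background, with a median of 7.93. *Col17a1*, the hemidesmosomal collagen that keeps HFSCs in place, had 9.80 and 10.22, and *Itgb4*, the integrin partner of *Itga6*, had 9.79 and 9.84. *Itgb3* (4.47 and 4.22) and *Itga9* (4.36 and 4.22) were not above background on both arrays. In the desmosome list *Dsc3* (11.25 and 11.14) and *Dsg3* (9.55 and 10.34), cadherins of basal cells, *Dsp*, the plaque protein desmoplakin (10.87 and 11.19), *Pkp1* (8.88 and 8.74) and *Dsg1a*, a suprabasal cadherin (mean 6.71), were above background. *Dsg4*, the cadherin of the hair shaft (3.67 and 3.82), *Dsc2* (3.43 and 2.96), *Dsg1b* (3.02 and 3.47) and *Pkp2* (2.94 and 2.83) were not. In all, 10 of 16 desmosome genes and 22 of 27 genes of adherens and tight junctions were above it, beside 52.2% of all genes. Their medians were 6.34 and 5.93, lower than that of the hemidesmosome and integrin genes. *Cdh1*, E-cadherin, had 10.37 and 10.55, and *Cdh3*, the P-cadherin that is strongest in the hair germ, had 9.99 and 10.14. Of 7 gap junction genes 4 were above it, with a median of 4.98. They were uneven between the arrays, and *Gjb2* had 8.38 and 6.34. Of 31 cytoskeleton genes 30 were above background, led by *Arpc2* of the Arp2/3 complex (10.50 and 10.37).

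Of 38 matrix genes 31 were above background, beside 52.2% of all genes, with a median of 7.85. *Tgfbi*, a matrix protein induced by TGF-β, had 10.50 and 11.12, *Agrn*, the proteoglycan agrin, had 10.59 and 10.58, and *Ecm1* had 10.09 and 10.88. *Lamb3* and *Lama3*, chains of laminin-332 that anchors hemidesmosomes, had 9.49 and 9.72, and 8.13 and 8.24. *Npnt*, nephronectin, which the bulge deposits to attach the arrector pili muscle, had 8.39 and 8.31, and *Egfl6*, another matrix protein of the upper bulge, had 8.26 and 9.15. Of the 38 genes, 2 were over 1 higher on replicate 1 and 2 on replicate 2. The largest of these gaps was that of *Nid1*, which encodes the basement membrane linker nidogen, with 3.35 on replicate 1 and 9.72 on replicate 2. Its second cluster gave the same order, at 3.78 and 7.58.

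Transcription factors of the bulge and outer root sheath were widely present, with 51 of 58 listed genes above background and a median of 7.49. *Vdr*, the vitamin D receptor that the hair cycle requires, had 10.56 and 10.83, *Trp63*, the master factor of stratified epithelia, had 10.09 and 10.45, and *Tfap2b* had 9.50 and 10.34. *Klf4*, known from epidermal barrier formation and as an immediate early gene, had 9.03 and 10.05, with replicate 2 higher. *Nfix* had 9.37 and 9.35, and *Irx3* had 9.02 and 9.07. The dim end of the list held *Sox2*, a factor of dermal papilla and Merkel cells (2.38 and 2.26), *Elf3* and *Elf5*, ETS factors of other epithelia (3.01 and 3.22, and 3.47 and 3.27), *Sox11* (3.51 and 3.56), *Hand2* (3.63 and 4.13) and *Pitx1*, a hindlimb factor (4.18 and 3.92). Hox genes keep a record of position along the body axis. Of 36 measured, 20 were above background, about the share of all genes (52.2%). *Hoxb9* (8.68 and 8.63), *Hoxb6* (8.53 and 8.40), *Hoxa6* (7.83 and 8.36), *Hoxa7* (7.50 and 7.57) and *Hoxc8* (7.52 and 7.30) were highest. *Hoxa13* (3.42 and 3.42), *Hoxd13* (3.11 and 3.45), *Hoxd12* (3.18 and 3.32) and *Hoxc11* (2.63 and 2.62), genes of the posterior end of the clusters, were not above it.

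Wnt genes were unequal between receptors and ligands, and their counts stand beside 52.2% of all genes above background. Of 30 receptors and transducers, 29 were above background (median 7.50), of 27 inhibitors and feedback genes 18 were (median 6.72), and of 25 ligands and secretion genes 14 were (median 4.76, close to the 4.82 of all genes). *Fzd2*, a Wnt receptor, had 9.57 and 9.54, and the co-receptors *Lrp5* and *Lrp6* had 9.11 and 9.41, and 8.70 and 8.84. *Fzd10* was the receptor not above background on both arrays (4.10 and 4.39). Secreted inhibitors that mark the resting bulge were high. *Dkk3* had 9.19 and 9.69, *Sfrp1* had 8.73 and 9.12 and *Wif1* had 8.37 and 8.40. *Axin2*, a feedback target of Wnt signaling, had 7.02 and 7.29. By contrast *Dkk1* (3.97 and 4.36), *Sfrp2* (4.36 and 4.24) and *Frzb* (1.74 and 1.67), inhibitors that are known from dermal cells, were not above background. *Sfrp4*, whose values are given with the fibroblast markers below, was under the background level on replicate 1 and above it on replicate 2. *Shisa2*, of a family shown in frogs to retain Wnt and FGF receptors inside the cell, had 8.94 and 7.30 and was higher on replicate 1. Among the ligands, *Wnt4* led with 8.52 and 7.37, *Wnt7b* had 5.37 and 5.66 and *Wnt3* had 5.63 and 4.58. *Wls*, the carrier that all Wnt proteins need for secretion, had 8.76 and 8.93. Ligand counts were sensitive to the background level, and 5 of 25 genes remained at its 99th percentile.

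**Figure D3:**
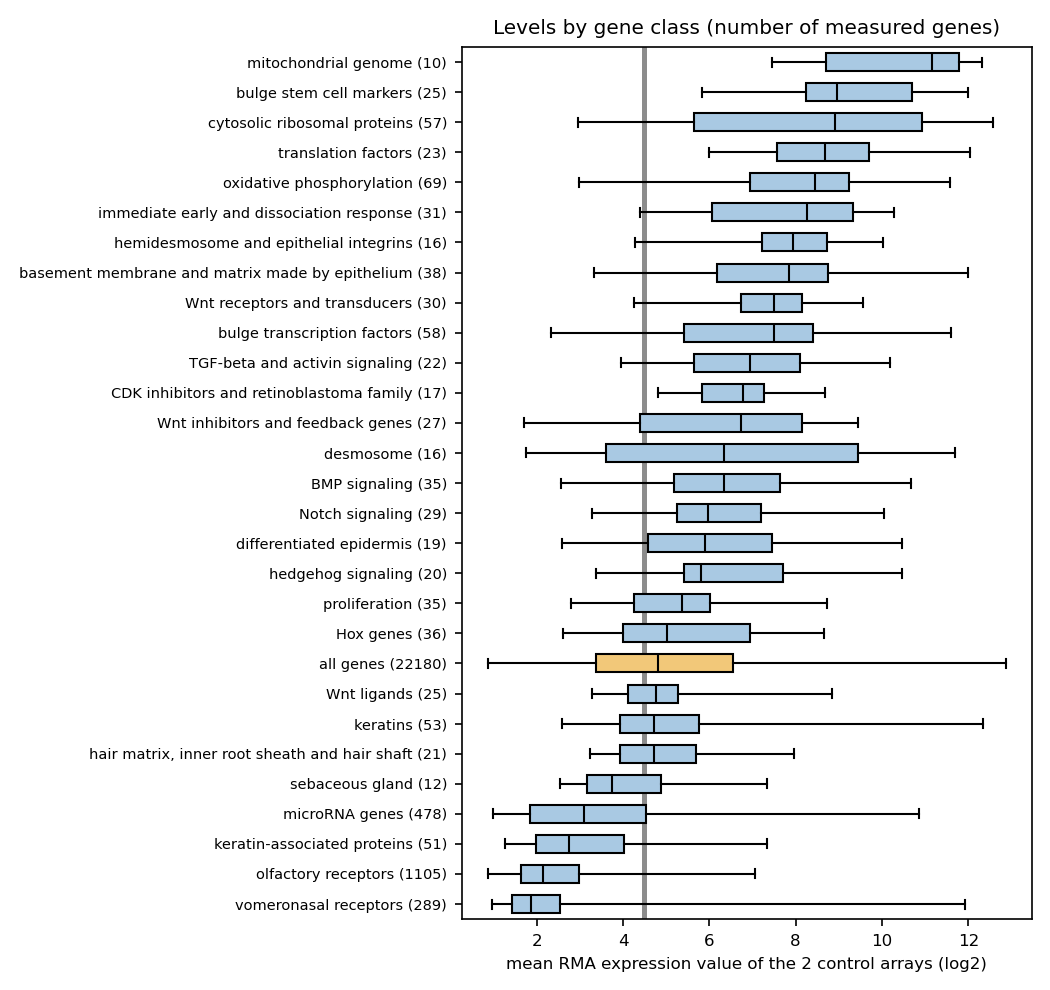
Mean RMA value of the 2 control arrays (log2, horizontal axis) for 28 gene classes and for all genes (orange), with the number of measured genes in brackets. Boxes span the quartiles with the median as a line, whiskers reach the lowest and highest gene, and the gray band marks the background levels. Genes of the mitochondrial genome and bulge markers have the highest medians (11.16 and 8.97), and receptor genes of the nose the lowest.

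BMP components included antagonists beside receptors and targets. Of 35 genes, 28 were above background, beside 52.2% of all genes. *Bmpr2*, the type II receptor, had 10.79 and 10.54, *Smad4*, the shared effector, had 9.03 and 8.97, and *Id3*, a direct target of BMP signaling, had 8.19 and 8.14. The antagonists *Fst* (9.02 and 9.21), *Grem1* (8.26 and 8.42) and *Sostdc1* (8.34 and 8.34) were above background too. *Bmp7* was the ligand with the highest signal (8.81 and 8.10), *Bmp6*, which the inner bulge is known to secrete, had 6.56 and 6.75, and *Bmp4*, a ligand of the dermal papilla, had 4.64 and 4.23 and was not above background on both arrays. For TGF-β, 20 of 22 genes were above background, led by the latent binding proteins *Ltbp4* (10.23 and 10.13), *Ltbp2* (9.54 and 9.48) and *Ltbp3* (9.69 and 9.27). *Tgfb2*, the isoform known from the dermal papilla, had 5.65 and 6.76, over 1 higher on replicate 2.

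Hedgehog receptors and effectors were present while the ligand *Shh* was not above background. *Shh* had 3.64 and 3.11, while another ligand, *Ihh*, had 4.93 and 5.31 and was above background on both arrays. *Boc*, a co-receptor, had 10.26 and 10.66, *Smo*, the transducer, had 8.45 and 8.65, and *Ptch1*, the receptor and a target, had 7.55 and 7.87. *Gli1*, the classical target gene, had 8.20 and 8.21, with *Gli2* at 8.49 and 8.54 and *Gli3* at 7.11 and 7.34. Of 20 hedgehog genes 16 were above background, and those that were not also included *Dhh* (4.20 and 4.34), *Scube1* (4.23 and 4.25) and, on replicate 1, *Hhip* (4.36 and 6.67), an inhibitor that is also a dermal papilla marker. In the Notch list 23 of 29 genes were above background, and the hedgehog and Notch counts stand beside 52.2% of all genes. *Jag1*, a ligand, had 9.78 and 10.30, and the receptors *Notch1* and *Notch2* had 8.97 and 8.60, and 8.33 and 8.77. *Hes1*, the gene floxed in these mice, had 5.34 and 5.04 in controls, above background on both arrays. Its relatives *Hes5* (3.86 and 4.12) and *Hey2* (4.09 and 4.04), and the ligands *Dll3* (3.23 and 3.34) and *Dll4* (3.68 and 3.03), were not.

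Growth factor receptors were above background while several of their ligands were not. In the FGF and EGF list 19 of 28 genes were above background, beside 52.2% of all genes. *Fgfr1* had 10.16 and 10.36, *Fgfr2* had 9.58 and 9.29 and *Egfr* had 9.82 and 10.01. *Lrig1*, an inhibitor of EGF receptors that marks upper follicle stem cells, had 8.08 and 7.64. *Fgf7* (4.23 and 4.28) and *Fgf10* (2.83 and 2.99), ligands of the dermal papilla, *Fgf5*, the ligand that ends anagen (4.01 and 4.31), and *Egf* (3.44 and 3.51) were not above background. Among insulin-like growth factor genes, 10 of 14 were above it. The binding proteins *Igfbp6* (9.19 and 9.72), *Igfbp7* (8.92 and 8.59), *Igfbp5* (8.04 and 8.42) and *Igfbp3* (8.52 and 7.51) were high, whereas the ligands *Igf1* (3.97 and 4.39) and *Igf2* (4.92 and 4.38) were not above background on both arrays.

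Cell cycle genes showed all 17 of 17 measured CDK inhibitors and retinoblastoma family members above background, with a median of 6.78. Of 35 proliferation genes 24 were above it, with a median of 5.36, beside 52.2% of all genes. *Cdkn1a* (8.25 and 7.97) and *Cdkn1b* (7.15 and 7.14), which encode the inhibitors p21 and p27, and *Rb1* (7.65 and 7.76) belong to the inhibitors and the retinoblastoma family. *Ccnd2*, a G1 cyclin, had 9.53 and 9.47, and all 7 of 7 G1 cyclin and kinase genes were above background. *Pcna*, the replication clamp, had 8.83 and 8.65, and *Mki67*, the gene of the Ki67 antigen, had 8.07 and 7.47, so that proliferation genes were not uniformly dim in telogen cells. *Bub1* (2.92 and 2.66), *Kif20a* (3.57 and 3.83), *Ndc80* (4.46 and 3.05), *Cenpf* (3.89 and 3.97), *Bub1b* (4.05 and 3.88) and *Cdc6* (4.13 and 3.92), genes of mitosis and of replication licensing, were not above background on both arrays. Of the 35 genes, 27 were higher on replicate 1. At the 99th percentile of the receptor genes 12 of the 35 remained.

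Genes of the respiratory chain were nearly all above background, beside 52.2% of all genes. All 10 of 10 measured genes of the mitochondrial genome and 67 of 69 nuclear genes of oxidative phosphorylation were above background, with medians of 11.16 and 8.44. *COX1* had 12.33 and 12.31, *ND4* had 12.33 and 12.19 and *Atp5l* of ATP synthase had 11.65 and 11.50. Of 21 glycolysis and lactate genes 20 were above background, with a median of 6.30. *Gapdh* had 10.34 and 10.31, *Slc2a1*, the glucose transporter GLUT1, had 9.17 and 9.08, and *Slc16a1*, a lactate carrier, had 4.08 and 4.69 and was the gene not above background on both arrays. Medians of different probe sets do not measure the ratio of these pathways. Of 26 antioxidant genes 23 were above background, led by *Sod1*, *Fth1* (10.68 and 10.76), *Gpx1* (10.07 and 10.06) and *Cat* (9.74 and 10.13). In translation, 51 of 57 cytosolic ribosomal protein genes, 67 of 71 mitochondrial ones and 23 of 23 translation factor genes were above background. The 6 cytosolic ribosomal protein genes that were not, among them *Rpl30* (3.98 and 3.90) and *Rps15* (2.71 and 3.19), encode parts that every ribosome needs, so a dim cluster here is no measure of absence.

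Surface antigens and immune genes in the sorted pools were mostly above background, beside 52.2% of all genes. The counts were 22 of 24 in the surface list and 15 of 15 in the MHC list, which holds class II genes too. *Cd9* (10.18 and 10.20) and *Cd81* (10.28 and 9.82), tetraspanins, *Cd63* (10.81 and 10.63) and *Sdc1*, syndecan-1 (9.60 and 9.48), were strong. *Prom1*, the gene of CD133, had 3.12 and 2.72. *H2-K1* and *Tap1* of the MHC class I pathway had 8.50 and 8.71, and 9.13 and 9.60, within 0.5 between the arrays, whereas the class II genes *H2-Ab1* (10.42 and 6.92), *H2-Eb1* (9.07 and 6.57) and *H2-Aa* (8.26 and 5.02) were far higher on replicate 1. Of 17 S100 genes 11 were above background, beside 52.2% of all genes. *S100a6*, *S100a10* (11.21 and 11.28) and *S100a4* (11.26 and 11.12) were the strongest, and *S100a8* (4.25 and 2.08) and *S100a9* (3.75 and 3.79), alarmins of neutrophils and irritated epidermis, were not above background.

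Neighboring epithelial compartments gave mixed signals. All 9 of 9 measured markers of the upper follicle and isthmus, 7 of 8 of the inner bulge and companion layer, 4 of 6 of the hair germ and 6 of 7 of the interfollicular basal epidermis were above background. Several of these genes are also used by the bulge. *Tgm5*, a transglutaminase, had 10.78 and 10.87, and *Lgr6*, *Plet1* and *Lef1* had 8.23 and 7.92, 7.65 and 7.81, and 8.09 and 6.91. In the list of differentiated epidermis 12 of 19 were above background, beside 52.2% of all genes. *Krt10*, *Sbsn* (9.01 and 9.21), *Krt77* (8.10 and 8.57), *Krt1* and *Calm4* (7.89 and 8.52) were highest. *Lor*, which encodes loricrin, had 5.98 and 6.85. *Flg2* (3.16 and 3.46) and *Hrnr* (2.60 and 2.55) of the cornified layer were not above background. The sebaceous list had 3 of 12 above background, and *Pparg*, the regulator of sebocytes, had 2.95 and 2.94. The hair matrix list had 11 of 21 above it, close to the share of all genes. In such pools of cells, fewer cells of a type and less RNA per cell cannot be told apart.

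Markers of other skin cells were above background at shares from 0 to about that of all genes (52.2%). None of 9 neutrophil markers, 1 of 7 adipocyte markers and 1 of 8 mast cell markers was above background on both arrays. The count was 4 of 13 for endothelium, where *Cdh5* had 5.51 and 5.57 and *Emcn* had 2.88 and 2.69, and 4 of 9 for melanocytes, where *Mitf* had 7.98 and 8.66, *Dct* had 6.61 and 5.20 and *Tyr* had 2.48 and 2.45. It was 4 of 10 for Merkel cells, 5 of 11 for muscle, 3 of 6 for Schwann cells, 5 of 12 for the dermal papilla and 0 of 1 for red blood cells. The 5 dermal papilla markers above background were *Crabp1* (5.94 and 6.50), *Alpl* (5.25 and 4.68), *Rspo3* (4.52 and 5.27), *Rspo4* (4.62 and 4.84) and *Corin* (4.74 and 4.69). The other 7 were not above it on both arrays. For Merkel cells *Krt8* (6.72 and 5.87), *Rab3c* (5.38 and 5.43), *Krt18* (4.94 and 4.79) and *Syp* (4.62 and 5.08) were above background. The defining factors *Atoh1* (4.56 and 4.36) and *Sox2* were not above background on both arrays. By replicate 1 alone 7 of the 9 melanocyte markers and 5 of the 12 sebaceous markers were above background, and by replicate 2 alone 4 of each list were. The levels of fibroblast, Langerhans cell and macrophage, T cell and mast cell markers on each array are described next.

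The control arrays agreed over most genes. Across the 22180 genes, which are not independent replicates, their values correlated with Pearson's r = 0.976 and Spearman's rho = 0.976, and 81.2% of genes lay within 0.5 of each other (median absolute difference 0.23). Among the 12832 genes above background on at least 1 control array, 305 (2.38%) were over 1 higher on replicate 1 and 274 (2.14%) were over 1 higher on replicate 2, a 2-fold difference on the linear scale. The largest of these differences fell on few kinds of genes.

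Markers of dermal fibroblasts were higher on replicate 2, some of them from under the background level on replicate 1 and others from above it. All 11 of 11 fibroblast markers were higher on replicate 2, 8 of them by more than 1, beside 2.14% of the genes above background. *Dpt*, which encodes the dermal matrix protein dermatopontin, had 2.78 on replicate 1 and 9.70 on replicate 2. *Dcn*, the proteoglycan decorin, had 4.83 and 10.42. *Col1a1*, the main collagen chain of dermis, had 7.16 and 8.57. *Dpt* was thus under the background level on replicate 1 and far above it on replicate 2, while *Fbln1* (8.65 and 8.90) was high on both arrays. On the linear scale the summed signal of the list was 756 on replicate 1 and 3611 on replicate 2. Of the same list, *Lum*, lumican, had 2.08 and 5.15, and *Mfap5* had 3.22 and 6.51. Outside the list, *Ogn*, osteoglycin (2.77 and 7.44), *Pi16* (3.78 and 8.23) and *Ddr2*, a collagen receptor (3.66 and 6.55), were among the 15 genes with the largest difference in this direction. By replicate 1 alone 6 of the 11 markers were above background, and by replicate 2 alone 10 were. *Cd34*, itself known on dermal fibroblasts, was 0.54 higher on replicate 2, and *Nid1*, *Hhip*, *Sfrp4* (3.49 and 5.74) and *Gpx3* (4.38 and 6.69) in the lists above were higher there by more than 1. The part of fibroblast RNA in these values was not tested.

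On replicate 1, *Xist* and some genes of antigen-presenting cells, T cells and mast cells were higher. *Xist*, the RNA of the inactive X chromosome, had 8.80 on replicate 1 and 2.93 on replicate 2. *Eif2s3y*, a gene of the Y chromosome, had 6.36 and 7.32, and was above background on both arrays, and *Kdm5d*, also of the Y chromosome, had 4.21 and 5.66. The sex of the mice in each pool is not stated, so that a difference in sex between the pools and any other difference between the replicates cannot be told apart. *Cpa3*, the mast cell carboxypeptidase, had 6.08 and 1.78. Of 8 mast cell markers 3 were over 1 higher on replicate 1 and none on replicate 2, and only *Kit* (4.67 and 4.62), which melanocytes also use, was above background on both arrays. Of 12 T cell markers 7 were higher on replicate 1, 4 of them by more than 1, and 5 were higher on replicate 2, none by more than 1. Of the chains of the T cell receptor complex, *Cd3d* had 5.56 and 3.07, *Cd3g* had 7.08 and 5.23 and *Cd3e* had 4.74 and 4.86. *Fcer1g* (5.85 and 4.18) and *Tyrobp* (5.49 and 3.63) are signaling adaptors of myeloid cells. Of 15 Langerhans cell and macrophage markers, 6 were over 1 higher on replicate 1 and none on replicate 2, and *Cd207*, langerin, had 5.81 and 4.92. Their summed linear signal was 2736 on replicate 1 and 635 on replicate 2. For T cell markers the sums were 509 and 302, and for mast cell markers 175 and 65.7. By replicate 1 alone 11 of the 15 Langerhans cell and macrophage markers were above background, and by replicate 2 alone 7 were.

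**Figure D4:**
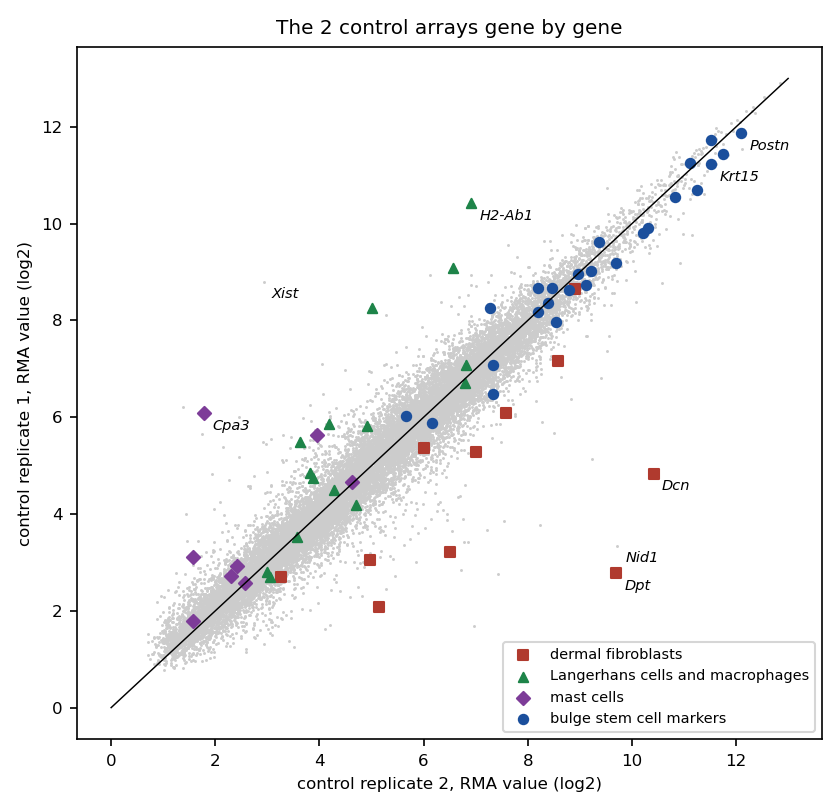
RMA values (log2) of 22180 genes on control replicate 1 (vertical axis) against control replicate 2 (horizontal axis), with the line of equal values. Fibroblast markers (squares) lie below the line, with *Dpt* at 2.78 on replicate 1 and 9.70 on replicate 2, *H2-Ab1* (10.42 and 6.92), *Cpa3* and *Xist* lie above it, and bulge markers (circles) lie along it.

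The same differences were then read on the *Hes1*eKO arrays, which took no part in choosing the genes. Arrays of the same replicate number may be a matched pair, in which case a shared difference is not an independent recurrence. Of the 274 genes over 1 higher on control replicate 2, 97 (35.4%) were also over 1 higher on *Hes1*eKO replicate 2, beside 2.71% of all 12832 genes there. Of the 305 genes over 1 higher on control replicate 1, 33 (10.8%) were also over 1 higher on *Hes1*eKO replicate 1, beside 1.29%. For the 15 genes with the largest difference toward control replicate 2, all 15 were over 1 higher on *Hes1*eKO replicate 2. Of these, 13 were not above background on control replicate 1 and so entered only through replicate 2. *Dpt* had 2.78 and 9.70 in replicates 1 and 2 of control and 4.46 and 9.31 in those of *Hes1*eKO. For *Nid1* these values were 3.35 and 9.72 in control and 3.44 and 9.67 in *Hes1*eKO cells. For *Dcn* they were 4.83 and 10.42 in control and 3.88 and 9.95 in *Hes1*eKO cells. The higher values thus stood on replicate 2 in both genotypes, also in the summed linear signal of the list, with 756 and 3611 in control and 675 and 2608 in *Hes1*eKO cells. In the other direction 10 of 15 genes were not above background on control replicate 2. Of the 15 genes with the largest difference toward control replicate 1, 6 were over 1 higher on *Hes1*eKO replicate 1. *Xist* was among these, with 8.80 and 2.93 in control and 8.95 and 3.17 in *Hes1*eKO cells. *Cpa3* was not, with 6.08 and 1.78 in control and 1.97 and 1.82 in *Hes1*eKO cells, and the summed signal of Langerhans cell and macrophage markers was 2736 and 635 in control and 819 and 656 in *Hes1*eKO cells. *H2-Ab1* had 10.42 and 6.92 in control and 7.98 and 6.85 in *Hes1*eKO cells.

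**Figure D5:**
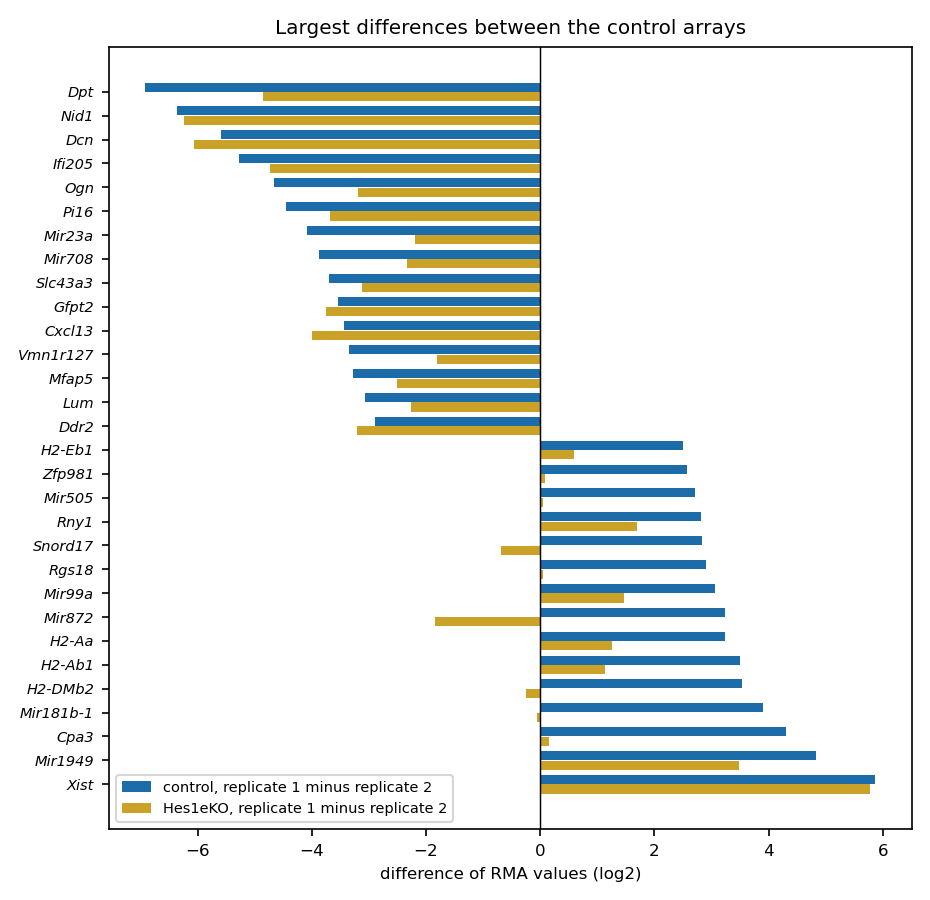
Difference of RMA values (log2, replicate 1 minus replicate 2, horizontal axis) on the control arrays (blue) and on the *Hes1*eKO arrays (yellow) for the 15 genes with the largest negative and the 15 with the largest positive control difference. All 15 genes higher on control replicate 2, from *Dpt* to *Ddr2*, have long bars of the same sign in both genotypes, whereas 4 of the 15 higher on control replicate 1, among them *Snord17* and *Mir872*, change sign.

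Smaller shifts ran through whole classes. Immediate early and dissociation response genes rise within minutes of stimulation or of tissue digestion. They were above background in 30 of 31 cases, beside 52.2% of all genes, with a median of 8.26 and 14 among the first 1000 genes. Of the 31, 23 were higher on replicate 2, 6 of them by more than 1. *Fosb* had 8.39 and 10.08 in control and 8.50 and 9.64 in *Hes1*eKO cells. *Atf3* had 6.83 and 8.63 in control and 6.38 and 8.17 in *Hes1*eKO cells, again higher on replicate 2. The opposite held for oxidative phosphorylation (57 of 69 higher on replicate 1, median difference 0.37), mitochondrial ribosomal proteins (63 of 71, median 0.35) and cytosolic ribosomal proteins (49 of 57, median 0.17), beside 50.8% of all genes and a median of 0.01. In *Hes1*eKO cells the medians of these 3 classes had the other sign (-0.27, -0.21 and -0.19). Pools of the same genotype thus differed in the medians of these 3 classes by up to 0.37 on the log2 scale.

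Noncoding RNA genes were led by structural RNA and by microRNA genes. *Malat1*, a nuclear long noncoding RNA, had 9.93 and 9.82, *Neat1* had 6.94 and 8.10, and *Rpph1*, the RNA of RNase P, had 11.86 and 11.59. Of 78 small nucleolar RNA genes 49 were above background, beside 52.2% of all genes, led by *Snora33* (10.40 and 10.64). Of 26 replication-dependent histone genes, whose messages lack a poly(A) tail, 7 were, led by *H4c12* (10.81 and 10.50). Of 478 microRNA genes 108 were above background, with a median of 3.09. A cluster named for a microRNA gene does not tell the mature RNA from its precursor. *Mir449b* (10.74 and 10.99) and *Mir703* (10.59 and 10.63) had the highest signals. *Mir23a* and *Mir27a*, neighbors on chromosome 8, separated the arrays. *Mir23a* had 5.15 and 9.23 in control and 6.99 and 9.19 in *Hes1*eKO cells. *Mir27a* had 6.80 and 9.41 in control and 7.83 and 9.40 in *Hes1*eKO cells, so that replicate 2 was the higher again. *Mir205*, the microRNA of stratified epithelia and their stem cells, had 7.03 and 7.45, and *Mir26a-1* had 7.18 and 7.23. *Mir203*, which is known to act when epidermal cells leave the basal layer, had 1.50 and 1.60 and was not above background.

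The mature sequences of these microRNAs are given from RefSeq (GRCm38.p6), 5′ to 3′, with the seed (bases 2 to 8), which pairs with target messages, in capitals, for the genes that separated the arrays and for those with known roles in epidermis.
miR-23a-3p: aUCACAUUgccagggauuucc
miR-27a-3p: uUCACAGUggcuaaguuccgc
miR-205-5p: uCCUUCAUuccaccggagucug
miR-26a-5p: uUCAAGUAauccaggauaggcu
miR-203-3p: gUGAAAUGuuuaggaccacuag
They lie at chr8:84208563-84208583, chr8:84208727-84208747, chr1:193507503-193507524 (minus strand), chr9:119031811-119031832 and chr12:112130927-112130948, all but *Mir205* on the plus strand. No seed was shared among the 5, although those of miR-23a-3p and miR-27a-3p begin with the same letters UCACA. Of the 478 microRNA genes 420 had a mature sequence in the RefSeq table.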

How the data were processed

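Cells were isolated with dispase and trypsin, dead cells and those of high scatter were gated out, and RNA was hybridised to Affymetrix Mouse Gene ST arrays. The deposited values are the authors' log2 expression values from RMA in Expression Console 1.4.1, which corrects background, normalizes between arrays and summarizes probes per cluster. Partek is also named in the submitters' processing notes. The genome build of the values is not stated, and no cluster coordinates are used. Gene names came from the platform annotation, and 23328 of 23521 clusters with 1 symbol matched the RefSeq gene table (GRCm38.p6), with 0 symbols changed.

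Values were used as deposited. Computation used Python 3.11.15, numpy 2.4.6 and pandas 2.3.3, with figures in matplotlib 3.10.9, and the ranking and counting were tested on simulated data. The labels call the 2 replicates independent, each pooled from 2 mice, and 2 arrays allow no test. Summed linear signal is the sum of 2 to the power of each value. Alternatives were other background percentiles (90th and 99th), olfactory receptors alone, the mean of clusters, quantile normalization, median centring and each array left out.

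The members and the gene lists were chosen with earlier results of these data known. Genes were named from a set given by a rule: the 40 with the highest signal, every bulge marker, of each list the 10 brightest and up to 6 dim members (all of lists with at most 20), the 15 largest differences between the control arrays in each direction and the 15 brightest microRNA genes. Not every gene of this set is named in the text, and the choice within it followed no stated rule. *Hes1*, *Atf3*, *Aqp3*, *Zfp36l1*, *Krt35*, *Tgfb2*, *Lama3*, *Npnt*, *Egfl6*, *Mir205*, *Mir26a-1*, *Mir203* and the clusters with several symbols lie outside this rule and were picked with their values known.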

Additional observations from a re-analysis of the deposited data

How the results depend on the processing

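No paired analysis was possible because no result comes from a test and genotypes were not compared. The number of genes above background was 14080 with the 90th and 8287 with the 99th percentile of the receptor genes, against 11587, and lay within 1.5 times the main count in all 9 alternatives. It ranged from 11996 to 12429 with 1 control array left out. The alternatives shared 27 (mean of clusters) to 40 of the 40 genes with the highest signal. Over genes above background on both arrays, Spearman's rho was 0.939 and 333 genes differed by over 1, against 0.976 and 743 of all genes. Fewer genes enter, and the cause of the lower rho was not tested. With differences over 2, the share of genes also higher on *Hes1*eKO replicate 1 was 6.67% (2 of 30), and that on replicate 2 was 45.7% (21 of 46). Of the counts per gene class, 9 of 25 moved by over 1.5 times with the 99th percentile, among them keratins (16 of 53), Wnt ligands and proliferation genes, and 0 of 25 with quantile normalization or the mean of clusters. With the receptor gene *Vmn1r233* left out of the background level (chosen after seeing the data) 11644 genes were above it. The precision is limited by 2 arrays, and RMA values hold no detection call.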

Other observations

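Of the 41345 clusters, 16004 carried no gene symbol in the annotation used, and 5402 of these (33.8%) were above the background level on both control arrays. Of the 40 clusters with the highest signal of any kind, 21 had no symbol, 9 had several and 10 had exactly 1, so that the ranking by gene leaves most of the brightest clusters undescribed. The clusters without a symbol were not analysed further here. *Erdr1*, among the 40 genes with the highest signal, had 11.75 and 11.59 in its brighter cluster and 10.06 and 9.75 in the other. The cluster shared by *Cd74*, the invariant chain of MHC class II, and *Mir5107* had 8.69 on control replicate 1 and 5.34 on replicate 2, the same order as *H2-Ab1*.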
